A study of Homo sapiens with 8 samples.

Results

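The S100 genes encode small calcium-binding proteins with paired EF-hand motifs. The members described here were S100A2, S100A4, S100A6, S100A7, S100A8, S100A9, S100A10, S100A11, S100A14 and S100P, chosen as the gene probes whose name on the array was one of these symbols. They comprised 10 of the 43317 gene names and 11 of the 58201 gene probes on the array, and all 10 were among the 21283 genes tested. Their expression was compared in SAS cells, an established cell line from a human squamous cell carcinoma of the tongue, after transfection with 25 nM of a negative control RNA (NC) or of 1 of 3 miRNAs, namely miR-874-3p, miR-629-3p or miR-210-3p, with 2 one-colour Agilent arrays in each of 4 groups. The paper describes the transfected cells as SAS/GFP, that is SAS cells carrying a GFP vector that served there as the controls of a CD44s-expressing line, while the labels name SAS cells, and all groups shared the same puromycin-containing medium. By the labels, RNA was taken 48 h after transfection. The paper gives a shorter interval and another extraction kit. The comparisons address what each of the miRNAs, studied for cisplatin resistance, does to gene expression relative to NC, in 1 cell line after transient transfection of a mimic. No source states that the 2 samples of a group came from separate cultures, so the p-values measure the spread between these samples, which may be technical.

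S100 proteins change shape when they bind calcium and then attach to target proteins inside the cell, and several are also released and act on receptors such as TLR4 and RAGE (AGER). Most of their genes lie side by side in the epidermal differentiation complex on the long arm of chromosome 1, next to genes of the cornified envelope, whereas S100P lies on chromosome 4. In stratified epithelium S100A7, S100A8 and S100A9 are known as inflammation-induced proteins, S100A2 as a protein of basal keratinocytes, and S100A4 as a protein linked to cell motility.

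A miRNA recognises its target mRNAs mainly through its seed, bases 2 to 8 from the 5′ end. The mature sequences are shown because the transfected miRNA is what distinguishes the groups; they are those of RefSeq (GRCh38.p14), written 5′ to 3′ with the seed in capitals, as the exact mimic sequences are not given in the sources used here.
miR-629-3p: gUUCUCCCaacguaagcccagc
miR-210-3p: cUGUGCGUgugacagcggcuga
miR-874-3p: cUGCCCUGgcccgagggaccga
They lie on the minus strand at chr15:70079387-70079408, chr11:568112-568133 and chr5:137647582-137647603, and no seed was shared between them.

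For the transcription of the S100 genes themselves, the 250 bases before the start site were read from RefSeq for all 10 members, with 13 start sites in all. Of 3 motifs searched on both strands, the TATA box (TATAAA) was present before at least 1 start site of 5 members, S100A4, S100A7, S100A8, S100A9 and S100P, against 10.7% of the 35116 promoters of the same length. The GC box (GGGCGG) was found for 4 members, S100A6, S100A9, S100A10 and S100A11, against 42.6% of all promoters, and the AP-1 site (TGANTCA) for 1, S100A2, against 6.57%. These shares count single start sites. Counted that way, the TATA box stood before 6 of the 13 member start sites, the GC box before 4 and the AP-1 site before 1. Neighbouring start sites of S100A8 share the same TATA match. The promoters of S100A4, S100A9 and S100P are printed because these genes showed the widest fitted changes among the members called below; each is given 5′ to 3′ with motif matches in capitals.
S100A4: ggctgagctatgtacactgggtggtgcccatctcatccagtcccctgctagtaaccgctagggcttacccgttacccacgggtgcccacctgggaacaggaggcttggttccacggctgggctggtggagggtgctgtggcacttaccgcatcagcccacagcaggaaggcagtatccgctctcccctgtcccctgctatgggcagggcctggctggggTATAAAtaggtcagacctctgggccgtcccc
S100A9: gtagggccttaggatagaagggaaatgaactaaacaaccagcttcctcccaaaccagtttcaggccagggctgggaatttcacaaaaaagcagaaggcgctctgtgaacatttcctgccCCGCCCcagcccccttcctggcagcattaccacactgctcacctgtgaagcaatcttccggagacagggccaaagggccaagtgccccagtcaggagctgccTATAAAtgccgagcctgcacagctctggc
S100P: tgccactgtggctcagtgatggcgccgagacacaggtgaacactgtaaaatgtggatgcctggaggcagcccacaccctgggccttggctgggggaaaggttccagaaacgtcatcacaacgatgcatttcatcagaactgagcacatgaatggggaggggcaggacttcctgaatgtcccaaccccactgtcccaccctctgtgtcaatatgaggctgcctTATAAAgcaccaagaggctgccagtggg
On GRCh38.p14 these are chr1:153545807-153546056 (minus strand), chr1:153357604-153357853 (plus strand) and chr4:6693628-6693877 (plus strand). The TATAAA match began 31 bases before the start site in S100A4, 29 in S100A9 and 28 in S100P, and the other capitals in S100A9 are a GC box on the opposite strand. A match describes these letters only, and binding was not measured.

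All 11 probes were well above background on all 8 arrays, none was saturated, and the dimmest, S100P, was at its lowest 8.28-fold above the dimmest detected signal of its array. Values below are log2 signal relative to the 75th percentile of the same array, so that 0 is the level of that percentile. The number of probes above background by the scanner's flag ranged from 24559 to 24980 on the NC arrays, from 25111 to 27210 in the miR-874-3p group, from 27133 to 27721 in the miR-210-3p group and from 28140 to 29008 in the miR-629-3p group. All arrays lay on 1 slide, where NC and miR-874-3p took row 2 and the other groups row 1. Row and group therefore cannot be told apart, except between miR-629-3p and miR-210-3p and between miR-874-3p and NC. Within the rows, miR-629-3p and miR-874-3p took columns 1 and 2, and miR-210-3p and NC took columns 3 and 4. Column and group therefore cannot be told apart within a row. All 10 epithelial markers on the list were detected on every array, while DCN, LUM, COL1A2, COL3A1 and PDGFRA of the fibroblast list and MS4A1 of the leukocyte list were detected on none. PDGFRB, PTPRC, CD14 and CSF3R, also on these lists, were detected on all. In RNA from a whole culture, fewer cells of a type and less RNA per cell cannot be told apart.

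The members differed in which of the 4 groups had the highest mean. Of the group means, that of miR-629-3p was highest for S100A2, S100A4, S100A6, S100A10 and S100A11, that of miR-874-3p for S100A7, S100A8, S100A9 and S100P, and that of NC for S100A14. The miR-210-3p group had the lowest mean for 9 of the 10 members, and miR-629-3p the lowest for S100A14. The same count was not made over all genes. For S100A8 the means of miR-210-3p and miR-629-3p were close, at -0.12 and -0.09. The F test of limma across groups passed an adjusted p of 0.05 for S100P, S100A14, S100A9, S100A2, S100A11 and S100A6, compared with 25.2% of all genes tested. S100A4 (adjusted p = 0.053), S100A8 (0.063), S100A10 (0.075) and S100A7 (0.17) did not pass that test. The plot of signals by array shows the values behind these means.

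**Figure D1:**
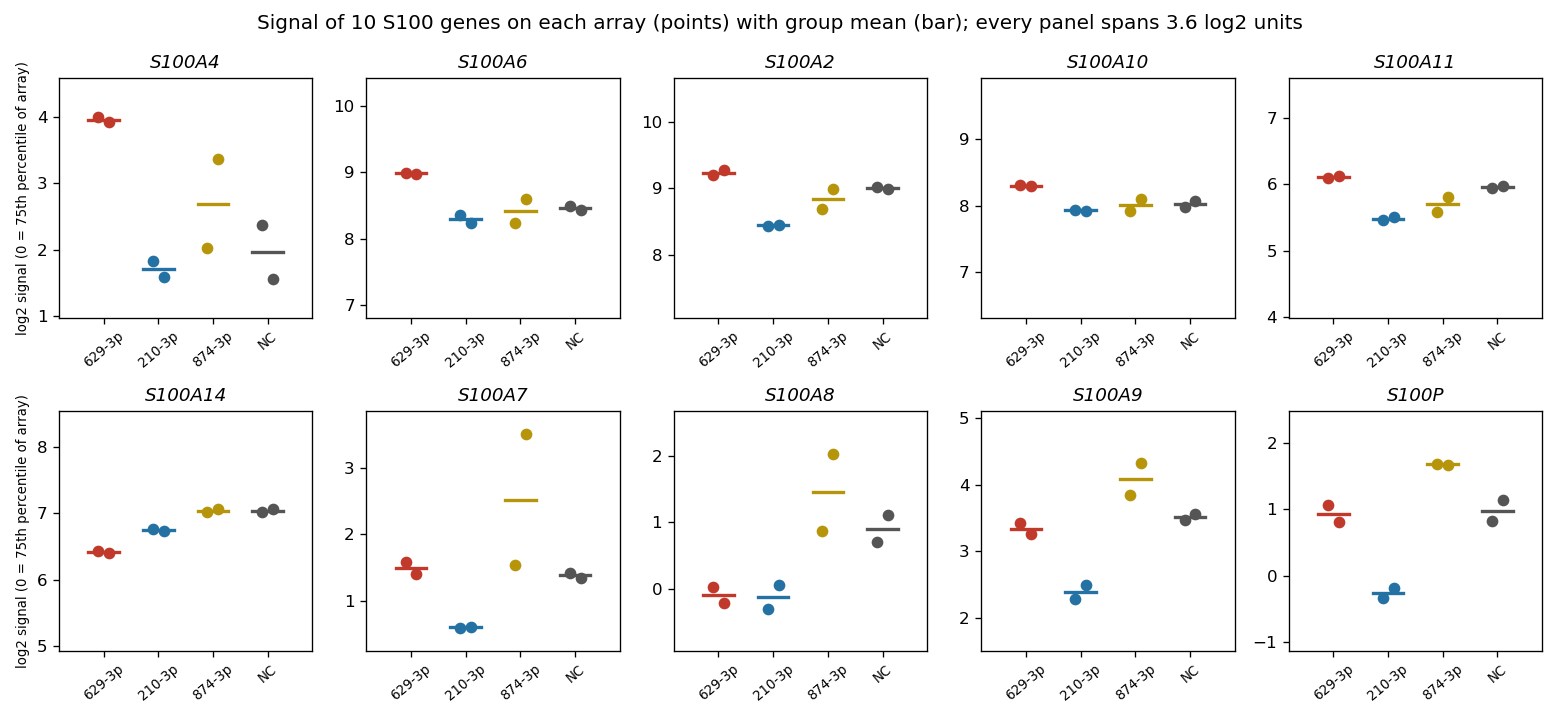
Log2 signal of each of the 10 S100 genes relative to the 75th percentile of the array (y axis) in the 4 groups (x axis), with 1 point for each of the 2 arrays of a group and a bar for their mean; every panel spans the same number of log2 units. S100A4 stood at 3.92 and 3.99 with miR-629-3p and at no more than 3.36 elsewhere, S100P and S100A9 were lowest with miR-210-3p, and the 2 miR-874-3p arrays lay far apart for S100A4, S100A7 and S100A8.

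With miR-629-3p, S100A4 and S100A6 rose and S100A14 fell relative to NC. These 3 of 10 members passed an adjusted p of 0.05 (by limma, adjusted after Benjamini-Hochberg across every gene tested, as throughout). Among all genes tested 16.8% passed, 9.28% as higher and 7.47% as lower, and the median log2 fold change of the members was 0.14 against 0.02 for all genes. At an unadjusted p under 0.05 and at least 2-fold, the threshold used in the study, S100A4 was the only member higher (3.62% of all genes), and none was lower (1.64% of all genes). Without either miR-629-3p array no member passed and 3 had an unadjusted p under 0.05, without either array of miR-210-3p or of NC 1 passed, and without either miR-874-3p array 5 did.

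S100A4, a partner of non-muscle myosin that is linked to cell motility, gave 2.38 and 1.57 in NC, 3.99 and 3.92 in the miR-629-3p group, 1.84 and 1.59 in the miR-210-3p group, and 2.03 and 3.36 in the miR-874-3p group. The miR-629-3p arrays lay above all other arrays, while NC overlapped both other groups. The fitted change against NC was 1.99 on the log2 scale (SE 0.47), or 3.96-fold (95% interval 1.75 to 8.95), with an adjusted p of 0.043. S100A4 is measured by a probe at chr1:153516198-153516257 (hg19, minus strand, array annotation). The SD of the NC arrays was 0.57 (n = 2). The log2 change was 1.58 without NC replicate 2 (adjusted p = 0.17) and 2.39 without NC replicate 1 (0.066). Over all alternatives the adjusted p ranged from 0.011 to 0.17.

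S100A6, the calcyclin that binds CACYBP, gave 8.99 and 8.98 with miR-629-3p and lay between 8.24 and 8.60 on the other 6 arrays (probe at chr1:153507255-153507685). Both miR-629-3p arrays were above the rest. The change against NC was 0.52 (SE 0.13, adjusted p = 0.047), a 1.44-fold difference close to the threshold, and the call was lost in 9 of 21 alternatives.

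S100A14, an epithelial S100 protein that belongs to the same chromosome 1 cluster, gave 7.02 and 7.06 in NC, 6.43 and 6.40 in the miR-629-3p group, 6.76 and 6.74 in the miR-210-3p group, and 7.01 and 7.07 in the miR-874-3p group (probe at chr1:153587006-153587065). The miR-629-3p arrays were the lowest, the miR-210-3p arrays came next without overlap, and miR-874-3p and NC overlapped. Against NC the change was -0.62 (SE 0.07, adjusted p = 0.0064). The largest SD within a group was 0.04 (n = 2). It was the only one of the 3 calls to remain without either NC array, either miR-210-3p array and either miR-874-3p array, at adjusted p from 0.0081 to 0.039, and without either miR-629-3p array it stood at 0.050 and 0.052.

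The remaining members did not pass with miR-629-3p. S100A10, the annexin A2 partner, gave 0.27 (SE 0.09, adjusted p = 0.086) with both arrays above both NC arrays, S100A2 gave 0.23 (0.20) and S100A11 0.16 (0.28). S100A8, which pairs with S100A9 as calprotectin, gave -0.997 (SE 0.39, adjusted p = 0.14), with 0.03 and -0.21 against 0.70 and 1.10 in NC. S100A9 (-0.17), S100A7 (0.12) and S100P (-0.05) had intervals that included 0.

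With miR-210-3p, S100P, S100A9, S100A2 and S100A11 fell relative to NC, and none of the 10 rose. The 4 members that passed compare with 2.20% of all genes called lower and 6.05% called in either direction. All 10 fitted changes were below 0, while 57.6% of all genes were above 0. The median was -0.52 against 0.05 over all genes. In 9 of 10 members both miR-210-3p arrays lay below both NC arrays, which held for 24.1% of all genes. At the study's threshold S100A8, S100A9 and S100P were lower, against 1.15% of all genes. Over the alternatives that used all arrays, their smallest changes were -0.66, -0.97 and -0.80 in that order, each under 2-fold.

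S100P, a member first found in placenta, gave -0.34 and -0.19 in the miR-210-3p group, 0.81 and 1.14 in NC, 1.06 and 0.80 in the miR-629-3p group, and 1.67 on both miR-874-3p arrays (probe at chr4:6698819-6698878). The miR-210-3p arrays were the lowest and the miR-874-3p arrays the highest, with miR-629-3p and NC overlapping between them. The change against NC was -1.24 (SE 0.14), 2.36-fold lower (adjusted p = 0.015). With normexp background correction it was -0.80, and the call was lost in 3 of the 13 alternatives that used all arrays.

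S100A9, the other subunit of calprotectin, gave 2.28 and 2.49 in the miR-210-3p group, 3.47 and 3.57 in NC, 3.43 and 3.26 in the miR-629-3p group, and 3.85 and 4.33 in the miR-874-3p group (probe at chr1:153330874-153333143). Again the miR-210-3p arrays were the lowest of all and the miR-874-3p arrays the highest. It was 2.19-fold lower than in NC (log2 change -1.13, SE 0.18, adjusted p = 0.029). This call was lost in 4 of the 13 alternatives that used all arrays. S100A8 gave -0.30 and 0.06 with miR-210-3p and a change of similar size, -1.03, with a wider error (SE 0.39, adjusted p = 0.17).

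S100A2, a p53-binding protein of basal keratinocytes, gave 8.44 and 8.46 with miR-210-3p against 9.02 and 8.99 with NC, a change of -0.56 (SE 0.11, adjusted p = 0.046). S100A11, an S100 protein that binds annexin A1, gave 5.45 and 5.50 against 5.94 and 5.97, a change of -0.47 (SE 0.09, adjusted p = 0.045). For both genes the miR-210-3p arrays were below all other arrays. S100A11 was the only member with 2 probes, and the other probe gave -0.57 (SE 0.10, adjusted p = 0.042 in a fit of all 27303 kept probes). The calls of S100A2 and S100A11 lay near the threshold and were lost with the deposited values, and in 12 and 13 of 21 alternatives in all.

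The rest of the members with miR-210-3p gave S100A14 at -0.29 (SE 0.07, adjusted p = 0.061), S100A7 at -0.78 (SE 0.59, adjusted p = 0.46), S100A4 at -0.26, S100A6 at -0.16 and S100A10 at -0.10. For S100A7, an antimicrobial protein also called psoriasin, both miR-210-3p arrays (0.60 and 0.61) lay below both NC arrays (1.41 and 1.35), but the fit shares its error with the miR-874-3p arrays, which were far apart. Without miR-874-3p replicate 1 or replicate 2 in the fit, 7 members passed in place of 4. Without miR-210-3p replicate 1 or 2 the number was 0, and without either array of miR-629-3p or of NC it was 1.

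With miR-874-3p, none of the 10 members passed an adjusted p of 0.05 against NC, while 0.423% of all genes did. By limma, 3 members had an unadjusted p under 0.05, namely S100P (0.69, SE 0.14, adjusted p = 0.12), S100A9 (0.57, SE 0.18, adjusted p = 0.21) and S100A11 (-0.25, SE 0.09, adjusted p = 0.26), and the methods' t-test also called 0. S100P was 1.62-fold higher with an interval of 1.27 to 2.07. eBayes with trend called 1 member higher.

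The 2 miR-874-3p arrays differed from each other more than those of other groups for most members. Replicate 2 was above replicate 1 in 9 of 10 members, with a median difference of 0.32, whereas 46.7% of all genes were higher on replicate 2. S100A7 gave 1.54 and 3.50, S100A8 0.87 and 2.03, and S100A4 2.03 and 3.36. The change of S100A7 against NC was 1.14 with both arrays (SE 0.59, adjusted p = 0.40), 0.16 without replicate 2 and 2.12 without replicate 1 (adjusted p = 0.0070), so a single array set its size. Its adjusted p ranged from 0.0070 to 0.79 over the alternatives. Over all genes, 954 were at least 2-fold apart between the miR-874-3p arrays, 879 between the NC arrays, 479 with miR-210-3p and 378 with miR-629-3p. The plot of replicate differences shows this spread.

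**Figure D2:**
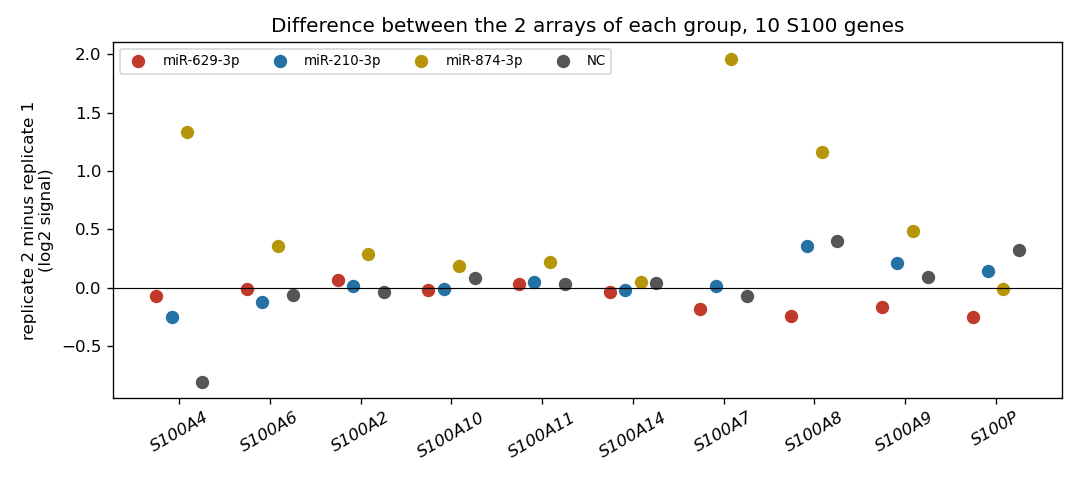
Log2 signal of replicate 2 minus that of replicate 1 (y axis) for each S100 gene (x axis) in each group (colour). With miR-874-3p the difference was above 0 for 9 of 10 members and was widest for S100A7, S100A4 and S100A8, and the widest difference with NC was that of S100A4.

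The direct comparison of miR-629-3p with miR-210-3p, whose arrays shared a slide row, gave the largest number of members called. Its fitted differences do not use NC, but its errors and p-values come from the spread within all 4 groups. With miR-629-3p, 7 members were higher and 1 lower than with miR-210-3p, against 9.83% of all genes called higher, 12.7% lower and 22.6% in either direction. S100A4 differed by 2.24 (SE 0.47, adjusted p = 0.026), or 4.74-fold, and S100P by 1.19 (SE 0.14, adjusted p = 0.0065), or 2.29-fold. The differences were 0.96 for S100A9, 0.79 for S100A2, 0.69 for S100A6, 0.63 for S100A11 and 0.37 for S100A10, at adjusted p from 0.0087 to 0.034. S100A14 was lower with miR-629-3p by this comparison too (-0.33, SE 0.07, adjusted p = 0.021). S100A7 (0.89, SE 0.59) and S100A8 (0.03, SE 0.39) did not pass, and the interval of S100A8 ran from -0.94 to 1.00. Without either array of miR-629-3p or of miR-210-3p, 1 member passed.

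**Figure D3:**
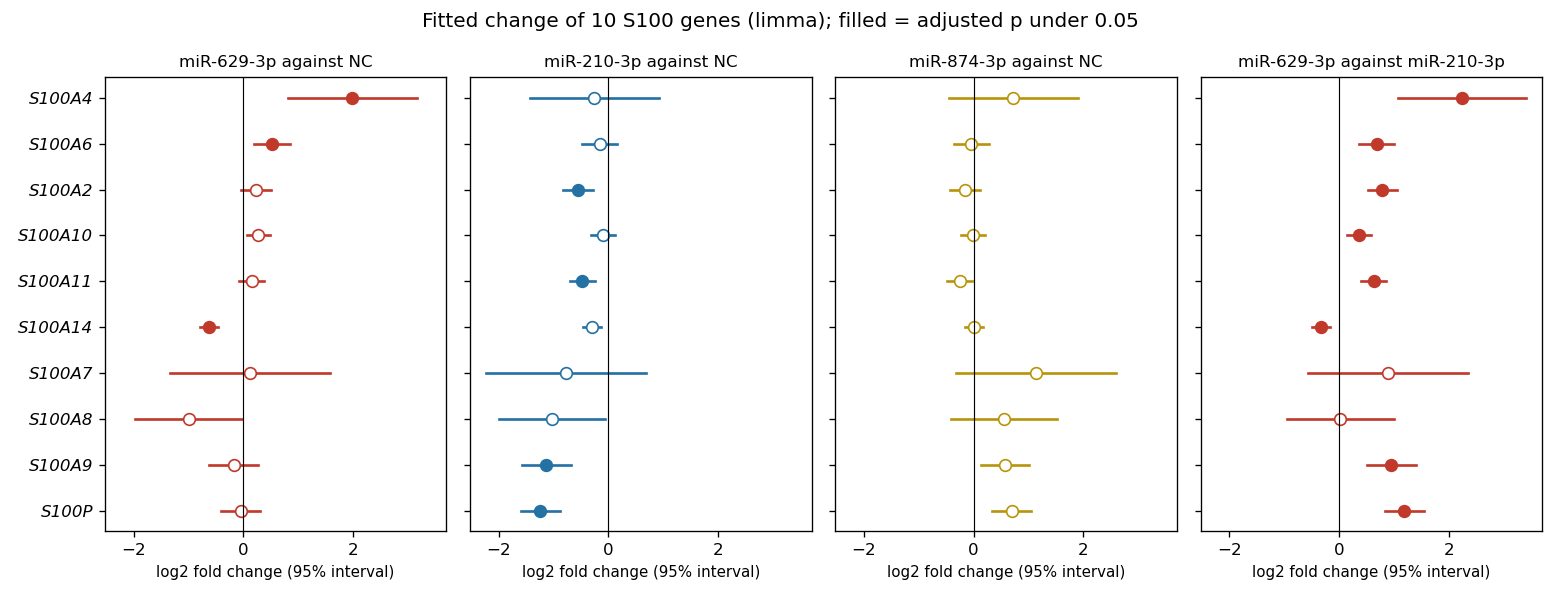
Fitted log2 fold change with its 95% interval (x axis) for each S100 gene (y axis) in 4 comparisons (panels); filled points passed an adjusted p of 0.05. S100A4 and S100A6 lay to the right and S100A14 to the left with miR-629-3p, all 10 genes lay at or left of 0 with miR-210-3p, none was filled with miR-874-3p, and 8 were filled between miR-629-3p and miR-210-3p.

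Against miR-874-3p, miR-629-3p gave 5 members called, against 16.2% of all genes (9.34% higher and 6.88% lower). S100A6 (0.57, adjusted p = 0.039) and S100A11 (0.41, adjusted p = 0.037) were higher, and S100A9 (-0.75, adjusted p = 0.044), S100P (-0.74, adjusted p = 0.025) and S100A14 (-0.62, adjusted p = 0.0064) were lower. The miR-210-3p group was lower than miR-874-3p for S100P (-1.93, SE 0.14, adjusted p = 0.0046), S100A9 (-1.70, SE 0.18, adjusted p = 0.0096) and S100A14 (-0.29, adjusted p = 0.049), which are 3 members against 3.47% of all genes called lower and 9.80% in either direction. Both comparisons rest on the miR-874-3p arrays: the number called with miR-629-3p was 4 without replicate 1 and 6 without replicate 2, and with miR-210-3p it was 6 and 3. Leaving out other arrays gave 0 (miR-629-3p replicate 2) to 2 members in the former and 1 (either miR-210-3p array) to 2 in the latter.

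Of the other 11 S100 genes on the array, 5 were tested, and none passed against NC with any miRNA by limma. An unadjusted p under 0.05 was reached by 3 of them with miR-629-3p and by 1 each with the other miRNAs. S100A16 was higher with miR-629-3p than with miR-210-3p (0.35, SE 0.08, adjusted p = 0.033) and than with miR-874-3p (0.38, adjusted p = 0.033). S100A7A, a close paralog of S100A7, was detected on 2 arrays and S100A12 on 1, and S100B, S100G, S100Z and S100A7L2 on none. The probe of S100A7 could in part read S100A7A transcripts, which was not tested. FLG, which encodes filaggrin and is the only gene tested of the 7 fused S100 genes, fell with miR-210-3p (-1.15, SE 0.20, adjusted p = 0.038).

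The S100 genes were also read in their order along chromosome 1. With miR-629-3p, S100A4 stood at 1.99 on the log2 scale between S100A5 at 0.39 (adjusted p = 0.10) and S100A3 at 0.65 (adjusted p = 0.12), and the next genes on either side, S100A6 and S100A2, gave 0.52 and 0.23, so that all 5 lay above 0. S100A14 at -0.62 stood between S100A16 at 0.20 (adjusted p = 0.15) and S100A13 at -0.05 (adjusted p = 0.69). The differences between neighbouring genes were not tested. Among the 15 genes tested beside the S100 cluster, DENND4B rose (0.38) and CREB3L4 fell (-0.72) with miR-629-3p. GATAD2B rose (0.39) and SLC27A3 fell (-0.75) with miR-210-3p, when the median of the 15 was 0.05 against -0.52 for the members. The median of the 5 other S100 genes tested was -0.06 in that comparison, so the lower median was not shared by all S100 genes. Of the 10 genes tested on the list of cornified envelope genes, involucrin (IVL, 0.97, adjusted p = 0.047) and SPRR2F (0.35) rose with miR-629-3p. None passed in the other groups, where 1 gene each had an unadjusted p under 0.05. With miR-874-3p that gene was SMCP, which was not well above background in NC. SMCP lies in the same region but does not encode a cornified envelope protein.

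**Figure D4:**
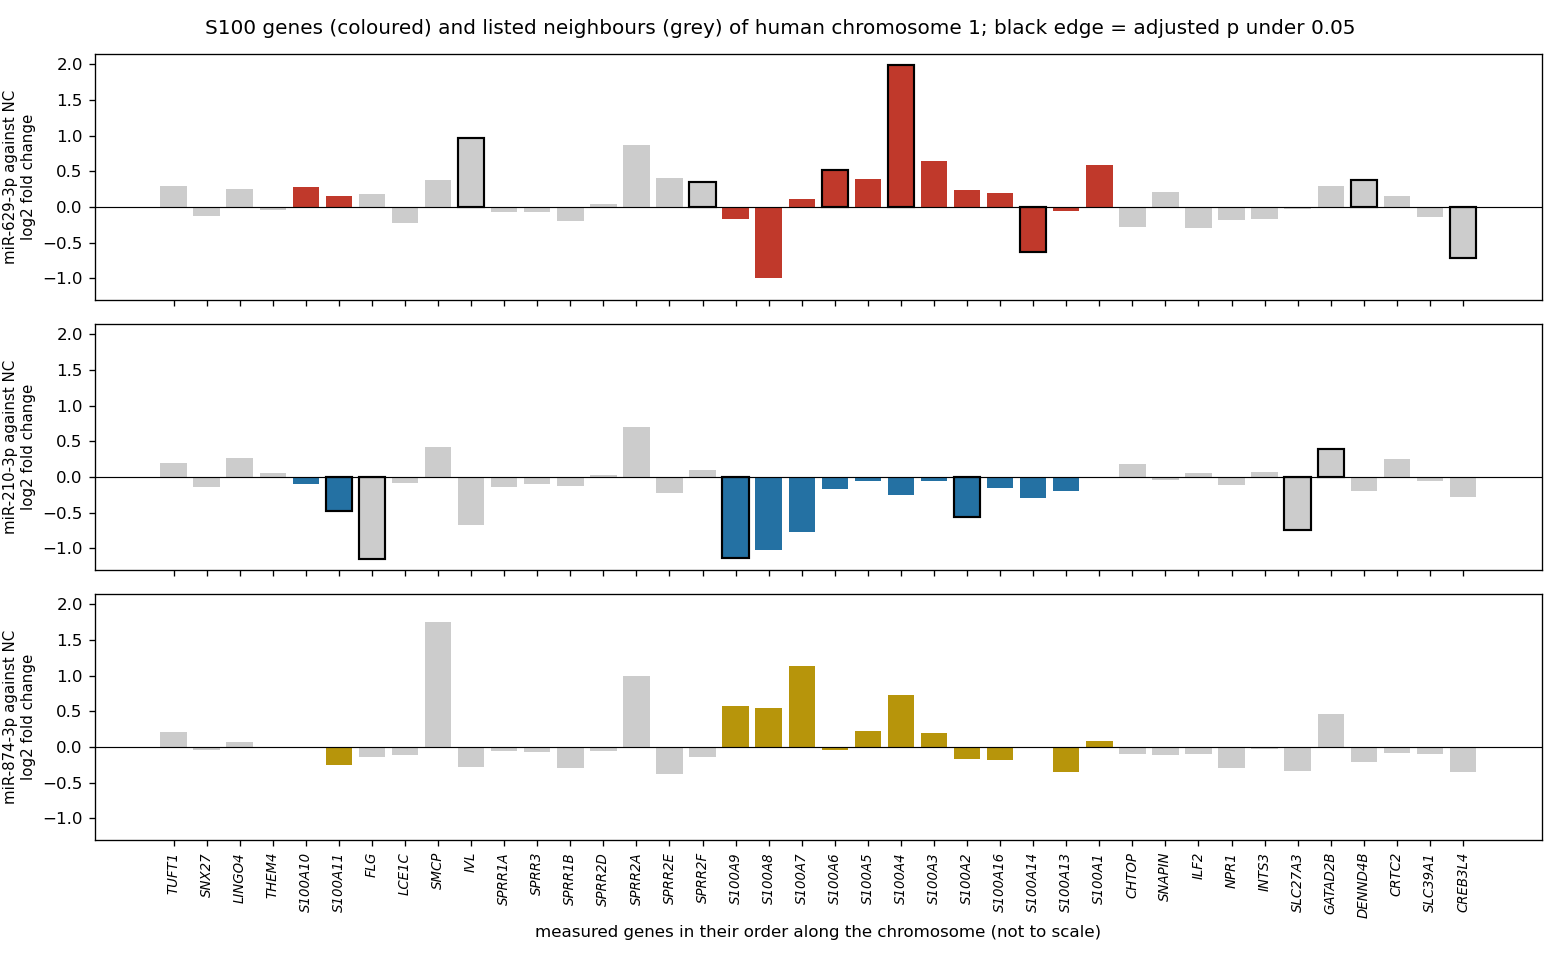
Log2 fold change against NC (y axis) of the measured genes of the list in their order along chromosome 1 (x axis, not to scale), S100 genes coloured and other genes grey, with a black edge where the adjusted p was under 0.05. S100A4 rose and S100A14 fell with miR-629-3p, the S100 bars with miR-210-3p lay below or near 0 while their neighbours lay on both sides, and no bar has a black edge with miR-874-3p.

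Among receptors of S100 proteins, 8 of 9 were tested. TLR4, a receptor of calprotectin, rose with miR-629-3p (1.46, SE 0.15, adjusted p = 0.0063) and with miR-210-3p (1.10, SE 0.15, adjusted p = 0.021). MCAM, another calprotectin receptor, fell with miR-629-3p (-0.45, adjusted p = 0.029) and rose with miR-210-3p (0.90, adjusted p = 0.012), and the difference between these miRNAs was -1.35 (SE 0.09, adjusted p = 0.0022). AGER was not called. Of the 15 intracellular partners tested, MYH9, the myosin that S100A4 binds, fell by 0.38 and AHNAK, which binds the S100A10 and annexin A2 complex, by 0.35 with miR-629-3p. None of the partners passed in the miR-210-3p group, where 4 had an unadjusted p under 0.05, or in the miR-874-3p group, where 2 had.

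Epithelial host defence genes, often induced together with S100A7 to S100A9, were examined next. Of 17 tested, IL1B (1.24), IL1A (1.06) and CXCL8 (0.90) rose and SAA2 fell (-1.06) with miR-629-3p. IL36G was called higher as well, but was not well above background in NC. With miR-210-3p, SAA2 (-1.46), SLPI (-1.36) and SAA1 (-1.27) fell, as S100A9 did, and IL36G was called higher while not well above background in either group. SAA1 and SAA2 are near-identical genes whose probes may share signal. None passed with miR-874-3p by limma, and 4 had an unadjusted p under 0.05.

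Of 10 epithelial markers, all detected on every array, 5 passed as lower with miR-629-3p (7.47% of all genes), 4 with miR-210-3p (2.20% of all genes) and 0 with miR-874-3p, where 2 had an unadjusted p under 0.05 by limma. Their median log2 fold change was -0.48 in the miR-629-3p group and -0.46 in the miR-210-3p group, against 0.02 and 0.05 over all genes. KRT17 (-0.68), KRT8 (-0.67), KRT14 (-0.66) and 2 others, CDH1 and KRT18, fell with miR-629-3p, and KRT5 (-1.25), KRT14 (-1.11), KRT17 (-1.01) and SFN (-0.96) fell with miR-210-3p. EPCAM and CDH1, which encode epithelial adhesion proteins, lay on the other side of NC with miR-210-3p, at 0.39 (adjusted p = 0.052) and 0.17 (adjusted p = 0.42). The summed level of the 10 markers, in multiples of the 75th percentile, was 1608 and 1712 in NC, 1539 and 1609 in the miR-874-3p group, 1429 and 1448 in the miR-210-3p group, and 1252 on both miR-629-3p arrays. Because this sum is linear, the brightest marker, KRT18, weighs most in it (log2 mean 9.82 in NC and 9.36 with miR-629-3p). The summed level of 8 fibroblast markers was 0.632 and 0.630 in NC, 0.970 and 2.13 in the miR-210-3p group and from 0.662 to 0.691 on the other 4 arrays. Of these markers, COL1A1 had a log2 mean of -0.55 with miR-210-3p and -3.45 in NC. Its highest value, on 1 miR-210-3p array, was 0.53, so the arrays of that group lay far apart. Only 2 of the fibroblast markers were tested. PDGFRB was higher than in NC by 0.47 after miR-629-3p and by 0.50 after miR-210-3p. COL1A1, a collagen chain, was not well above background in NC and at least 4.87-fold higher with miR-210-3p, the bound being taken against the dimmest detected signal, but did not pass (adjusted p = 0.061). The summed leukocyte markers ranged from 3.35 to 4.68 over all arrays. The part of the epithelial and fibroblast markers in the changes of S100 genes was not tested.

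S100A4 and S100P had the widest range of group means among members, 2.24 and 1.93 on the log2 scale, and the genes most like each were sought among 17400 genes detected on all 8 arrays by the Pearson correlation of log2 signal. For S100A4 these were LRRC61 (r = 0.994), FBXO2 (0.993), TNXB (0.989), PALM3 (0.988) and CD24 (0.986). For S100P the closest gene was S100A9 (0.974), followed by MRPL44 (0.966), ZFP64 (0.965), AK127935 (0.964) and AP1S2 (0.964). The 8 points are 4 groups of 2 arrays, so that the values describe likeness of pattern over these arrays only.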

How the data were processed

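Gene expression of SAS cells was measured on 8 Agilent arrays of 4 groups, assigned from the sample labels. The authors deposited, per array, Feature Extraction (11.5.1.1) output with intensity values that were background-subtracted but not normalized between arrays, and a table of log2 values. After a constant offset per array (-0.049 to 0.0039) this table matched the log2 signals computed here.

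Outlier-flagged spots were left out, log2 signals averaged per probe and the array's 75th percentile over 58201 gene probes subtracted. Flagged spots numbered 87 to 162 per array in slide row 1 and 297 to 346 in row 2. Kept were probes measured on every array and, in at least 1 group, flagged as above background on both of its arrays, and the brightest probe per gene was used. Group means were fitted to the 8 arrays by limma 3.58.1 (R 4.3.3), with no covariate (4 residual and 1.68 prior degrees of freedom, Benjamini-Hochberg over 21283 genes). All tests are two-sided. On simulated data the fit was tested for recovery of known changes. The number of arrays limits the precision.

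The 10 members and all gene lists (other and fused S100 genes, S100 receptors, intracellular partners, cornified envelope genes, neighbours, host defence genes, and epithelial, fibroblast and leukocyte markers) were chosen with earlier results of these data known. Named are all members, up to 3 called genes per list and comparison with the largest change (CDH1, KRT18, EPCAM, COL1A1 and the S100 genes beside S100A4 and S100A14 were added after their values were seen), and the 5 genes most like the 2 members of widest range. One called gene of the partner list is not reported here. Probe coordinates are those of the array annotation on hg19, and sequences are from RefSeq. Alternatives comprised other background correction, scaling, filters, probe choices and models, the methods' t-test, a replicate block and each array left out. A slide block was not run because there was 1 slide. Same-numbered replicates did not deviate together (r from -0.11 to 0.034 between groups), so the numbers were not found to pair samples. No 2 arrays held identical values.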

Additional observations from a re-analysis of the deposited data

How the results depend on the processing

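The alternatives that used all arrays kept the direction and the call of most fitted changes: of 780 values over 13 settings, 674 did so, 68 lost a call, 29 gained one and 9 changed sign; with 1 array left out, 342 of 480 did so, 102 lost a call, 23 gained one and 13 changed sign. The number of members called against NC with miR-629-3p (3) became 0 by the methods' t-test, and with miR-210-3p (4) it became 2 with the deposited values, 2 with outlier spots kept, 0 without a filter on detection, 0 with only the 2 groups compared and 0 by the t-test, in which 6 passed an unadjusted p under 0.05. With miR-874-3p (0) it became 1 under eBayes with trend. Between miR-629-3p and miR-210-3p (8) it became 3 without a filter and 3 by the t-test; between miR-629-3p and miR-874-3p (5) it became 8 with normexp, 8 with trend, 3 without a filter, 0 with only the 2 groups and 0 by the t-test; between miR-210-3p and miR-874-3p (3) it became 5 with normexp, 6 with trend, 0 with only the 2 groups and 0 by the t-test. A fit on 2 groups and the t-test use fewer arrays for the error, and for the other settings the cause was not tested. In both of the last comparisons normexp raised the calls over all genes too. For miR-629-3p against miR-874-3p it called 2726 genes higher and 1889 lower, in place of 1988 and 1465. For miR-210-3p against miR-874-3p it called 1106 lower, in place of 738. For the other settings, and with arrays left out, counts over all genes are not given here. The changed member counts therefore do not single out the S100 genes.

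With the replicate number as a block, the counts against NC were 1 (miR-629-3p), 1 (miR-210-3p) and 0 (miR-874-3p), 5 between miR-629-3p and miR-210-3p, 1 between miR-629-3p and miR-874-3p and 2 between miR-210-3p and miR-874-3p; the numbers were not found to pair the samples.

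With each array left out in turn, which takes the spread of a lone remaining array from the rest, the counts against NC ranged from 0 to 5 (miR-629-3p), 0 to 7 (miR-210-3p) and 0 to 1 (miR-874-3p), from 1 to 9 between miR-629-3p and miR-210-3p, 0 to 6 between miR-629-3p and miR-874-3p and 1 to 6 between miR-210-3p and miR-874-3p.

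Every sign change concerned a member that was not called. S100P against NC after miR-629-3p was 0.00026 with the deposited values, 0.00067 with outlier spots kept, and -0.21 to 0.12 as arrays were left out. S100A4 after miR-210-3p ranged from -0.66 to 0.15. After miR-874-3p, S100A14 was 0.033 with normexp, 0.056 after quantile normalization, 4.9e-05 centred on the median, 0.00088 with the deposited values and 0.0019 with outlier spots kept. S100A6 and S100A10 were 0.0026 and 0.032 after quantile normalization. As arrays were left out, the values against NC after miR-874-3p ranged from -0.027 to 0.026 for S100A14, -0.22 to 0.14 for S100A6, -0.11 to 0.080 for S100A10 and -0.032 to 1.13 for S100A8, that of S100A8 between miR-629-3p and miR-210-3p from -0.15 to 0.21, and those between miR-210-3p and miR-874-3p from -0.30 to 0.058 for S100A6 and -0.18 to 0.013 for S100A10. With 2 arrays a group, the methods' t-test called 0 members against NC after adjustment. All members were well above background, but the fitted sizes of the dimmer ones varied with the processing. With miR-210-3p against NC, alternatives that used all arrays gave -1.27 to -0.80 for S100P and -1.06 to -0.66 for S100A8.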
